A study of Drosophila melanogaster with 17 samples.

Results

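The libraries described here are the 7 mRNA-seq libraries of the pilot sequencing round, out of 17 in the series. The study left 3 of them out of its later comparisons, WT_1, WT_2 and C24_1, because it read markers of the central nervous system (CNS) as low in them and Pen, used as a mark of imaginal discs, as high. The other 4, WT_3, C24_2, C24_3 and C24_4, are called CNS-like below. Of these, the study also set WT_3 and C24_3 aside, for a low level of the GAL4 transgene, which is not among the genes counted here. Each library was made from the pooled CNS of many larvae late in the third instar of Drosophila melanogaster. In WT (elavGAL4) the GAL4 driver under the elav promoter was crossed to an empty UAS vector (UAS-PWIZ). In C24 (elavGAL4-C24) the same driver was crossed to UAS-Smn RNAi-C24, a hairpin directed at Smn. Both groups carried 1 kind of driver and the normal Smn locus, and the driver acts in postmitotic neurons alone, so that glia, neuroblasts and any other tissue in a pool are outside the knockdown. Libraries keep the names of their labels throughout, although single genes read at the end did not follow the labels in each of the 3 excluded libraries.

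The members were chosen by measured expression: the study read elav, repo, Pen, Usp7 and the GAL4 transgene. Every gene was measured in the same libraries, so all values that set the 3 excluded libraries against the 4 CNS-like ones are a description, with no p-value.

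The larval CNS holds the optic lobes, the central brain and the ventral nerve cord, with neurons marked by the RNA-binding protein Elav, glia marked by the homeodomain protein Repo, and dividing neuroblasts. It lies close to several other organs. The ring gland, which makes ecdysone, sits on the brain, the eye-antennal discs and the larval eyes are joined to it, and the mouth hooks, pharynx, salivary glands, foregut and fat body surround it. Each has genes that are used as its marks: myosin and troponin in body wall muscle, hexamerins in fat body, glue proteins in salivary gland, serine proteases in gut, and cuticle proteins in epidermis.

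The excluded libraries held 7883183 to 14712256 counts, the CNS-like ones 10928843 to 20084597, and the 10 libraries of the later rounds 16516270 to 28339670. Levels are given as counts per 1000000 (CPM) after TMM scaling over all 17 libraries. The limit that a count of 0 sets lies between 0.144 and 0.469 CPM over the pilot libraries, and it covers counting error only, as do the intervals given with shares. Differences are log2 CPM of 1 library minus the mean of the 4 CNS-like libraries, with a prior count of 2. Over the 10505 genes with at least 10 counts in a pilot library the median difference was 0.05 in WT_1 and -0.25 and -0.28 in WT_2 and C24_1. Under total counts it was 0.19, -0.52 and -0.66, and under the size factors of DESeq2 0.05, 0.00 and 0.07, so differences of this size carry no direction.

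The neuronal marker elav stood at 273 CPM in WT_1 and 74.0 and 28.9 in WT_2 and C24_1. It was at 1437 in WT_3, 2119 in C24_2, 1716 in C24_3 and 1822 in C24_4, and at 1519 to 2636 in the 10 later libraries. The excluded libraries thus held 15.4%, 4.17% and 1.63% of the CNS-like mean, and the groups did not overlap. Of 10505 genes, 30.7% were likewise lower in all 3 excluded than in all 4 CNS-like libraries, whatever the size of the difference. The glial marker repo was at 62.4, 22.3 and 17.8 CPM in WT_1, WT_2 and C24_1, against 118, 161, 129 and 156 in the 4 CNS-like libraries in the order above. Its depletion was smaller than that of elav in each of the 3 libraries, at 44.3%, 15.8% and 12.6% of the CNS-like mean. Usp7, a ubiquitin-specific protease, followed the same order with 290, 56.5 and 28.3 CPM against 398 to 547. Pen, an importin alpha, did not: it stood at 592, 348 and 308 CPM against 340 to 450, above all 4 in WT_1, inside their range in WT_2 and just below it in C24_1. The boundary between the groups is therefore wide in elav, where WT_1 at 273 CPM was the nearest excluded library and WT_3 at 1437 the nearest retained one.

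Markers of other tissues went the opposite way. Mlc2, the myosin regulatory light chain of muscle, was at 589 CPM in WT_1 and 889 and 1699 in WT_2 and C24_1, and at 11.5, 8.72, 12.6 and 7.41 in the CNS-like libraries. Lsp2, a hexamerin stored by the fat body, was at 1299, 1151 and 1998 CPM, against 44.3, 24.4, 5.08 and 4.17. The groups did not overlap for either gene, and 29.4% of 10505 genes were likewise higher in all 3 excluded than in all 4 CNS-like libraries. The 3 libraries took different orders for the 2 genes, WT_2 being above WT_1 for Mlc2 and below it for Lsp2.

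**Figure D1:**
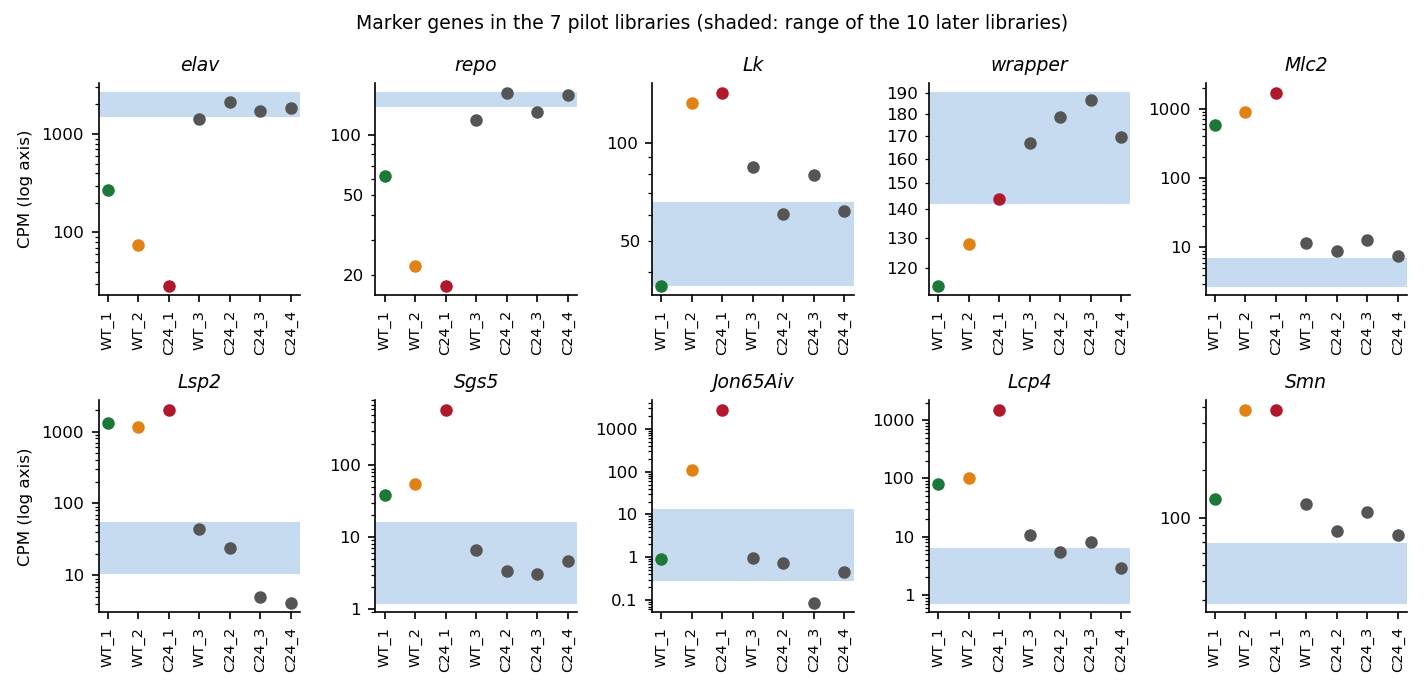
Levels (CPM, log axis) of 10 genes in each of the 7 pilot libraries, with the range of the 10 later libraries shaded. The CNS markers elav and repo are low and Mlc2, Lsp2, Sgs5 and Lcp4 high in the 3 excluded libraries (coloured points), while the neuropeptide gene Lk is higher in WT_2 and C24_1 than in any CNS-like library (grey points).

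Genes of neurons were lower in the 3 libraries almost throughout. A gene was counted as below when a library lay at least 4-fold under all 4 CNS-like libraries. It was counted as above when the library lay at least 4-fold over all 4. Only genes with at least 10 counts in a pilot library entered, and the excluded libraries alone could supply these. Below were 12 of the 16 neuronal genes in WT_1 and 15 and 15 in WT_2 and C24_1, where 4.77%, 19.1% and 26.7% of all genes were below. None was above. The median difference of the list was -3.55 in WT_1 and -4.54 and -6.00 in WT_2 and C24_1. fne, which codes for an RNA-binding protein of the Elav family, was at 100, 50.04 and 15.2 CPM against 2096 to 2463. n-syb, the synaptobrevin of synaptic vesicles, was at 94.3, 33.3 and 8.75 CPM against 496 to 674, and the neuronal cadherin CadN at 67.2, 37.8 and 12.5 against 617 to 1037. For all 3 genes the order was the same, WT_1 being the least and C24_1 the most depleted.

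Receptor and recognition genes of neurons, taken by gene symbol after their values had been seen, were mostly low as well. Of 20 dpr genes, which code for cell surface proteins of synaptic partner recognition, 15 were below in WT_1 and 17 and 18 in WT_2 and C24_1. Of 9 genes for nicotinic acetylcholine receptor subunits, 5, 8 and 7 were below, so that their counts did not rank C24_1 last. Of all genes, 4.77%, 19.1% and 26.7% were below in WT_1, WT_2 and C24_1. nAcRbeta-21C was above in all 3 libraries, at 29.9, 70.1 and 60.3 CPM in WT_1, WT_2 and C24_1 against 2.88 to 4.91. The genes with the largest depletion by the naming rule included bru-3, an RNA-binding protein (12.2, 13.0 and 5.00 CPM against 614 to 676), nAcRalpha-30D (1.96, 1.40 and 3.28 against 71.4 to 156), mmd, a metalloprotease (10.1, 7.79 and 1.56 against 239 to 324), and the serotonin receptor 5-HT1A (3.69, 2.81 and 0.156 against 52.8 to 68.1). CG31221, CG34114, CG42613, CG32206 and dpr completed that group, with 0.156 to 40.0 CPM in the excluded and 51.7 to 527 CPM in the CNS-like libraries.

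Neuropeptide genes were lower as well, but fewer of them were below than of the neuronal genes. Below were 5 of 16 in WT_1 and 8 and 8 in WT_2 and C24_1, where 4.77%, 19.1% and 26.7% of all genes were below. In WT_2 and C24_1, 6 and 7 genes of the 16 stayed within 2-fold of the CNS-like range, as did 3929 and 3389 of all 10505 genes. Lk, which codes for leucokinin, was at 36.4 CPM in WT_1 and 132 and 142 in WT_2 and C24_1, against 84.2, 60.5, 79.7 and 61.6. It was thus below every CNS-like library in WT_1 and above every one in the other 2. The hugin gene hug was at 25.3, 69.1 and 58.5 CPM against 59.2 to 90.6, and Fmrf at 20.2, 52.9 and 48.3 against 46.8 to 69.6. In WT_2 both lay inside the range of the CNS-like libraries, and in C24_1 Fmrf did, while elav was at 4.17% and 1.63% of its CNS-like mean in the same libraries. Crz, the corazonin gene, was at 36.7 CPM in C24_1 against 36.1 to 52.1, and the insulin-like peptide gene Ilp2 at 95.8 against 129 to 162. Others were low in all 3 libraries. Dh44, a diuretic hormone, was at 9.69, 1.66 and 0.938 CPM against 69.3 to 95.7, Nplp1 at 80.7, 27.6 and 10.2 against 304 to 406, and amon, the prohormone convertase that cuts neuropeptide precursors, at 26.2, 16.2 and 6.25 against 220 to 266.

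Glial genes were divided in the same way. The list includes repo, which the study read in choosing the libraries. In WT_1 none of 9 was below and 7 lay within 2-fold of the CNS-like range, as did 7617 of all 10505 genes. In WT_2 and in C24_1 4 were below, where 19.1% and 26.7% of all genes were. The glutamate transporter gene Eaat1 was at 96.7, 26.7 and 21.9 CPM against 329 to 389, and nrv2, a sodium pump subunit, at 287, 45.6 and 31.4 against 300 to 404. By contrast alrm, a gene of astrocyte-like glia, was at 120, 195 and 269 CPM against 278 to 339, and wrapper, a gene of the glia that wrap midline axons, at 115, 128 and 144 against 167 to 187. Here the most depleted library was WT_1 and the least depleted C24_1, the reverse of the order for elav and repo. loco, an RGS protein of the blood-brain barrier, was at 91.6, 103 and 101 CPM against 68.7 to 92.7, with WT_2 and C24_1 above all 4. The CNS markers thus did not move as a block. Since some neural genes stayed at CNS-like levels, the 3 libraries are named here by how they were chosen and not by a tissue.

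Neuroblast and Hox genes were mostly low as well, the neuroblast genes less so in WT_1. Below were 0, 6 and 6 of 8 neuroblast genes in WT_1, WT_2 and C24_1, where 4.77%, 19.1% and 26.7% of all genes were. In WT_1 4 of the 8 lay within 2-fold of the CNS-like range, and the median difference was -1.057. ase, a proneural factor of neuroblasts, was at 53.5, 7.79 and 4.22 CPM against 131 to 142, and mira, an adaptor of asymmetric division, at 200, 149 and 121 against 266 to 384. grh went the other way in WT_1, at 87.4 CPM against 33.1 to 44.3, and was lower in WT_2 and C24_1, at 21.2 and 8.75. The Hox genes of the nerve cord were low in all 3: Antp was at 24.1, 9.96 and 2.97 CPM against 127 to 140, Ubx at 8.30, 4.98 and 0.625 against 55.4 to 69.8, and abd-A at 6.69, 4.47 and 2.81 against 72.5 to 125. Scr, another Hox gene, was an exception in WT_1, where it stood at 115 CPM against 23.4 to 33.3.

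The choice of libraries did not use gene length. The neural genes that stayed near CNS-like levels mostly had a short 3' UTR. The lengths are the median over the transcripts of a gene in the BDGP6 annotation of Ensembl, and the division at 400 bases was chosen after the values had been seen. Among 16 neuropeptide genes, the 9 with under 400 bases had median differences of -1.47 in WT_1 and -0.93 and -0.59 in WT_2 and C24_1, and the 7 with 400 or more -2.40, -3.94 and -5.30. Among the glial genes the 4 shorter ones had -0.86, -0.56 and -0.24 and the 5 longer ones -0.71, -2.88 and -3.41. Lk has 109 bases, alrm 192, loco 325 and wrapper 309, while elav has 749, repo 852, Eaat1 1163, amon 1590 and fne 4927. All 14 neuronal genes with a known length had 400 or more, so the neuron list holds no short 3' UTR to compare.

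**Figure D2:**
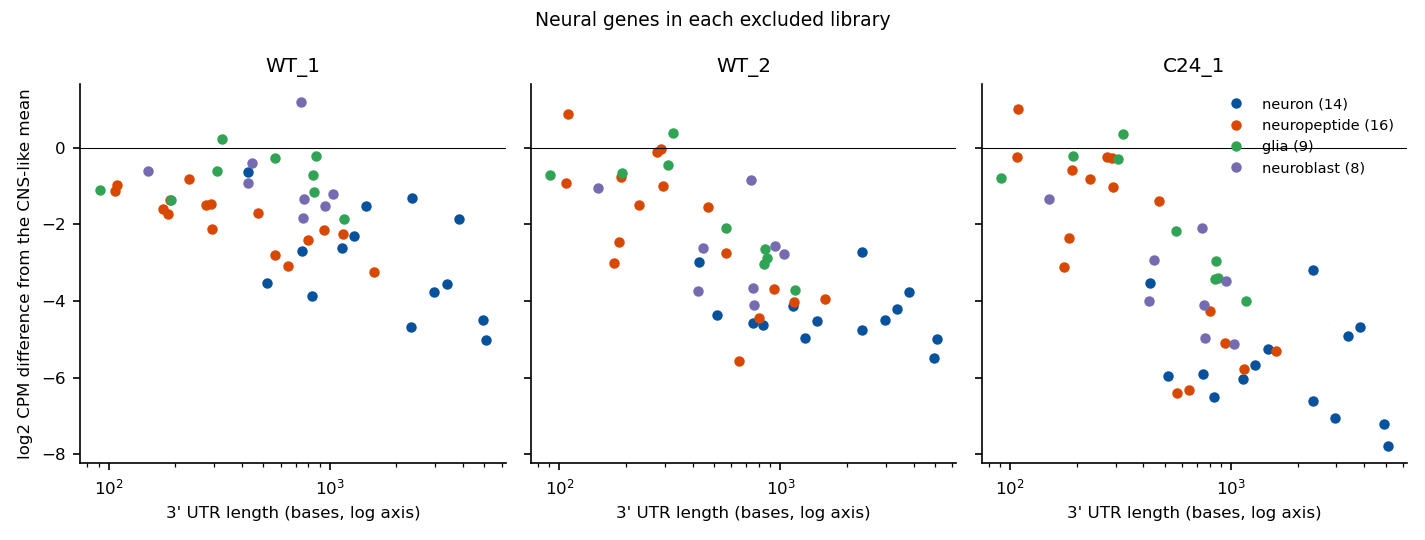
Log2 CPM difference from the CNS-like mean of 47 neural genes against the length of their 3' UTR (log axis), 1 panel for each excluded library, coloured by list with the number of genes in brackets. In C24_1 the 9 neuropeptide genes under 400 bases have a median of -0.59 and the 7 longer ones -5.30, and in WT_1 the medians are closer, at -1.47 and -2.40.

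The same order ran through the whole transcriptome. Over 7134 genes with known lengths and a mean of at least 10 CPM in the pilot libraries, the median difference in C24_1 went from 1.75 for genes with under 50 bases of 3' UTR to -0.61 for 300 to 500 bases and -4.52 for 2000 bases or more. In WT_2 it went from 1.60 through -0.46 to -3.35, and in WT_1 from 0.41 through -0.04 to -1.83. Of the 163 genes in the longest class, 91.4% were below in C24_1, 81.0% in WT_2 and 39.3% in WT_1, and none was above. Over the 10 later libraries the same class medians stayed between -0.40 and 0.83. Grouped by exon length, however, their medians ran from -1.40 for under 500 bases to 1.37 for 8000 or more. Those of WT_1 ran from 0.75 to -0.95 over the same classes. Spearman's rho between 3' UTR length and the difference, across genes that share their libraries, was -0.52 in WT_1 and -0.63 and -0.64 in WT_2 and C24_1. With the summed exon length it was -0.52, -0.64 and -0.67, so both lengths moved with the difference. Length orders the CNS-like libraries too, with rho for exon length from -0.68 in C24_3 to 0.75 in C24_4, but over a much smaller range: the SD of the difference across genes was 0.244 to 0.309 in these 4 and 1.44, 2.33 and 2.95 in WT_1, WT_2 and C24_1. In the later libraries rho for exon length ran from -0.04 in X7/C24_4 to 0.82 in C24_7, with an SD of 0.291 to 0.75. Ordering by length is thus not particular to the excluded libraries. The part that gene length has in the results was not tested.

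**Figure D3:**
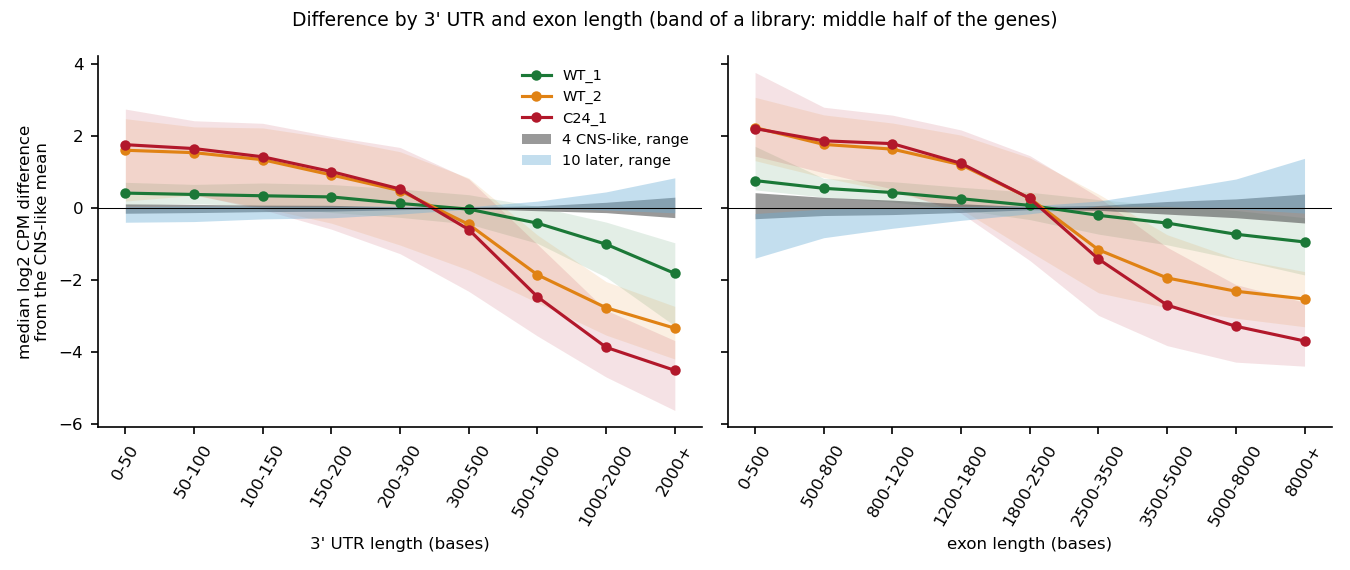
Median log2 CPM difference from the CNS-like mean for genes grouped by 3' UTR length (left) and by exon length (right), in bases, for the 3 excluded libraries, with the interquartile range of the genes as a coloured band, the range of the 4 CNS-like libraries in grey and that of the 10 later libraries in blue. On the left the line of C24_1 runs from 1.75 to -4.52, that of WT_2 from 1.60 to -3.35 and that of WT_1 from 0.41 to -1.83.

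When the median of genes of like 3' UTR and exon length was taken out of each library, an alternative chosen after the data had been seen, the neuron list moved to -2.05 in WT_1 and -1.87 and -2.37 in WT_2 and C24_1, and the muscle list to 5.05, 4.05 and 5.23. Both lists thus kept their directions, and the neuronal depletion was then of like size in the 3 libraries. The neuropeptide list stood at -1.925 in WT_1 and -1.972 and -2.194 in WT_2 and C24_1 under this setting, near the neuron list. The 74 genes of the small chromosome 4 were lower than genes elsewhere, with medians of -0.67, -2.80 and -3.73, where the other chromosomes had -0.06 to 0.09 in WT_1, -0.46 to 0.06 in WT_2 and -0.53 to -0.02 in C24_1. They also have long exons, with a median of 4381 bases against 2122 to 2444. With the length medians taken out they stood at -0.45, -1.52 and -1.76.

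Muscle genes were high in all 3 excluded libraries. Above were 17 of 20 in WT_1 and 14 and 18 in WT_2 and C24_1, where 8.56%, 13.3% and 16.7% of all genes were above, and the median difference was 5.25, 3.79 and 4.57. Act57B, a muscle actin, was at 747, 215 and 441 CPM against 14.0 to 20.8, and Mhc, the muscle myosin heavy chain, at 170, 59.7 and 222 against 1.47 to 2.55. TpnC25D, a troponin C, was at 94.8, 116 and 300 CPM and at no more than 0.0862 in the CNS-like libraries. Tm1 and Actn, which other cells also express, stood apart from the list, with 530, 255 and 262 CPM against 458 to 550 and with 229, 160 and 164 against 240 to 281.

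Fat body genes were high too. Above were 6, 5 and 5 of 7 in WT_1, WT_2 and C24_1, where 8.56%, 13.3% and 16.7% of all genes were above. Lsp1gamma was at 2419, 411 and 636 CPM against 60.8, 23.8, 5.26 and 4.71, and Fbp1, the hexamerin receptor, at 715, 954 and 1280 against 6.81 to 56.9. The CNS-like libraries themselves differed in Lsp1gamma, WT_3 and C24_2 being higher than C24_3 and C24_4. The gene that went against the list was Rfabg, the precursor of the lipophorin apolipoproteins on chromosome 4, at 641, 97.4 and 55.5 CPM against 717 to 1446.

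Glue and gut genes separated the 3 libraries from each other. Sgs5, a salivary glue protein, was at 38.6 CPM in WT_1 and 55.5 and 590 in WT_2 and C24_1, against 3.02 to 6.49, and Sgs7 at 19.0, 62.7 and 389 against 1.58 to 3.14. Of 27 Jonah and trypsin genes, which code for digestive serine proteases, 15 had at least 10 counts in a pilot library. All 27 together had 33 to 90 counts in a CNS-like library, 84 in WT_1, 2234 in WT_2 and 64877 in C24_1. Of the 15, 0 were above in WT_1 and 10 and 14 in WT_2 and C24_1, where 8.56%, 13.3% and 16.7% of all genes were. A gene could pass the filter through WT_2 or C24_1 alone, so these numbers follow in part from the filter. Jon65Aiv was at 0.922, 107 and 2777 CPM against 0.0862 to 0.9501, Jon65Aiii at 1.56, 112 and 2414 against 0.0981 to 0.897, and Jon25Bii at 0.173, 8.43 and 1331 against 0 to 0.144. The family was not high throughout even in C24_1: Jon66Cii, Jon44E, gammaTry and zetaTry had no count there, while Jon65Ai was at 0.782 CPM and Jon99Ciii at 2.97. C24_1 also held PGRP-SC2, an amidase that acts on peptidoglycan in the gut, at 370 CPM against 1.27 in WT_1, 1.40 in WT_2 and 0.158 to 0.336 in the CNS-like libraries, and Peritrophin-15a, a chitin-binding protein, at 447 against 0.231, 1.28 and at most 0.0959. Of 7 detected midgut genes, 1, 2 and 5 were above in WT_1, WT_2 and C24_1. Below were 0, 2 and 0, where 4.77%, 19.1% and 26.7% of all genes were. The list medians were -0.687 in WT_1, -0.276 in WT_2 and 3.73 in C24_1. Most of these genes were at low levels. In C24_1 the factor GATAe was at 0.782 CPM and mex1 at 7.35, against under 0.2 for both in WT_1 and WT_2 and, for mex1, 0.9501 to 1.38 in the CNS-like libraries. Genes named for the largest excess in C24_1 were CG32302 (2725 CPM), CG5084 (1831), CG17826 (881) and CG6277 (593), none above 34.1 CPM in WT_1 or WT_2.

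Larval cuticle genes had a like order. Lcp4 was at 81.8, 101 and 1504 CPM against 2.85 to 10.8 and Lcp1 at 46.8, 79.5 and 898 against 3.44 to 9.29, with C24_1 an order higher than WT_1 and WT_2. Of 10 detected genes of the list, 4, 4 and 6 were above and 1, 1 and 0 below in WT_1, WT_2 and C24_1. Of all genes, 8.56%, 13.3% and 16.7% were above and 4.77%, 19.1% and 26.7% below. The pupal cuticle gene Edg78E was low, at 0.115 to 0.469 CPM in the excluded and 1.16 to 2.80 in the CNS-like libraries. In the excluded libraries this is near the limit that a count of 0 sets.

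Some genes of the larval head sense organs were higher in all 3. Of 44 odorant-binding protein genes, taken by symbol after their values had been seen, 23 had at least 10 counts in a pilot library. Of these 23, 18, 19 and 19 were above in WT_1, WT_2 and C24_1. These numbers follow in part from the filter, which a gene could pass through the excluded libraries alone. Obp56e was at 218, 228 and 653 CPM and had 0 to 2 counts in a CNS-like library, and Obp56d was at 311, 919 and 1091 against 0.343 to 1.90. Obp44a and Obp99a, which were already high in the CNS-like libraries at 2129 to 3204 and 429 to 635 CPM, lay within 4-fold of them. Photoreceptor genes, also taken by symbol, went both ways: of 12 detected, 5 were above in each of the 3 libraries, and 2, 3 and 4 were below in WT_1, WT_2 and C24_1. Of all genes, 8.56%, 13.3% and 16.7% were above and 4.77%, 19.1% and 26.7% below, so the numbers below in WT_2 and C24_1 were near those shares. Rh6, an opsin of the larval eye, was at 38.2 CPM in WT_1 and 116 and 98.2 in WT_2 and C24_1 against 0 to 0.192. Rh5, the other larval opsin, was at 13.5, 43.9 and 40.3 CPM against 0.981 to 1.74, and the arrestin gene Arr1 at 31.9, 91.8 and 75.2 against 0.192 to 0.345. On the lower side, norpA, the phospholipase C of phototransduction, was at 37.2, 19.0 and 9.22 CPM against 162 to 215, and the opsin gene Rh7 at 0.346, 0.255 and 0.313 against 7.15 to 8.93. The opsins of adult eyes, ninaE, Rh2, Rh3 and Rh4, were at most 1.15 CPM in any pilot library.

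Hemocyte, tracheal and disc genes were highest in WT_1. The hemocyte gene Hml was at 86.2, 38.5 and 10.2 CPM against 5.94 to 11.4, and He at 86.2, 29.1 and 30.0 against 2.64 to 8.50, while the prophenoloxidase gene CG8193 was at 374, 332 and 445 against 5.99 to 25.2. verm, a chitin deacetylase of the trachea, was at 274, 173 and 137 CPM against 36.6 to 53.4, and the chitin-binding gene Gasp at 215, 59.6 and 50.2 against 25.3 to 49.6. Of 8 tracheal and chitin genes 6 were above in WT_1 and 1 and 0 in WT_2 and C24_1, where 8.56%, 13.3% and 16.7% of all genes were above. Among 10 imaginal disc genes 1, 3 and 5 were below in WT_1, WT_2 and C24_1, where 4.77%, 19.1% and 26.7% of all genes were below. The medians of these disc genes were 0.78, -0.65 and -2.17. Only hh, the hedgehog ligand, was above, in WT_1 and WT_2, at 26.6 and 18.4 CPM against 1.72 to 3.53, and it was at 11.9 in C24_1. fj was at 94.2, 54.3 and 43.0 CPM against 17.8 to 23.6. vg, a wing selector gene, was lower, at 2.82, 1.28 and 0.156 CPM against 12.7 to 18.0. No eye disc gene was above or below by the 4-fold rule. The medians of the 7 eye disc genes were 1.37 in WT_1 and -0.619 and -0.635 in WT_2 and C24_1. In WT_1 all 7 were higher than the CNS-like mean, by 0.854 to 2.302 on the log2 scale, and 4 lay within 2-fold of the CNS-like range. The Eig71E genes, a cluster of ecdysone-induced genes taken by symbol after their values had been seen, reached levels up to 66.6 CPM. Of 11 such genes, 9 had at least 10 counts in a pilot library. Without the most abundant gene the list had 845 counts in WT_1, 4 in WT_2 and 145 in C24_1. It had 2 to 6 in a CNS-like library, so these genes passed the filter only through excluded libraries.

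Ring gland genes divided into 2 sets. sad, an ecdysone hydroxylase, was at 181, 507 and 606 CPM against 47.7 to 106, and phm, another, at 238, 496 and 496 against 62.1 to 181. spok and nvd, which act at earlier steps of the pathway, were at 736, 74.7 and 53.6 CPM against 195 to 478 and at 117, 11.6 and 7.03 against 17.6 to 62.0. WT_1 was thus above all 4 CNS-like libraries for the 4 genes, and WT_2 and C24_1 were above for the first set and below for the second. spok has a 3' UTR of 105 bases and is thus no case of a long one. The ring gland level varies between the later libraries too, phm from 9.65 to 198 CPM.

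AttA, an antimicrobial attacin, was at 48.9, 135 and 62.5 CPM against 0.528 to 1.53, and Listericin, named after its values were seen, at 126, 295 and 251 against 0.211 to 0.393. Def was at 2.71, 8.04 and 10.0 CPM against 0.0528 to 0.288. Testis, germ line and Malpighian tubule lists had no gene above in WT_1, and 1 testis gene, Mst87F, was above in WT_2 and in C24_1, at 4.85 and 2.97 CPM.

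**Figure D4:**
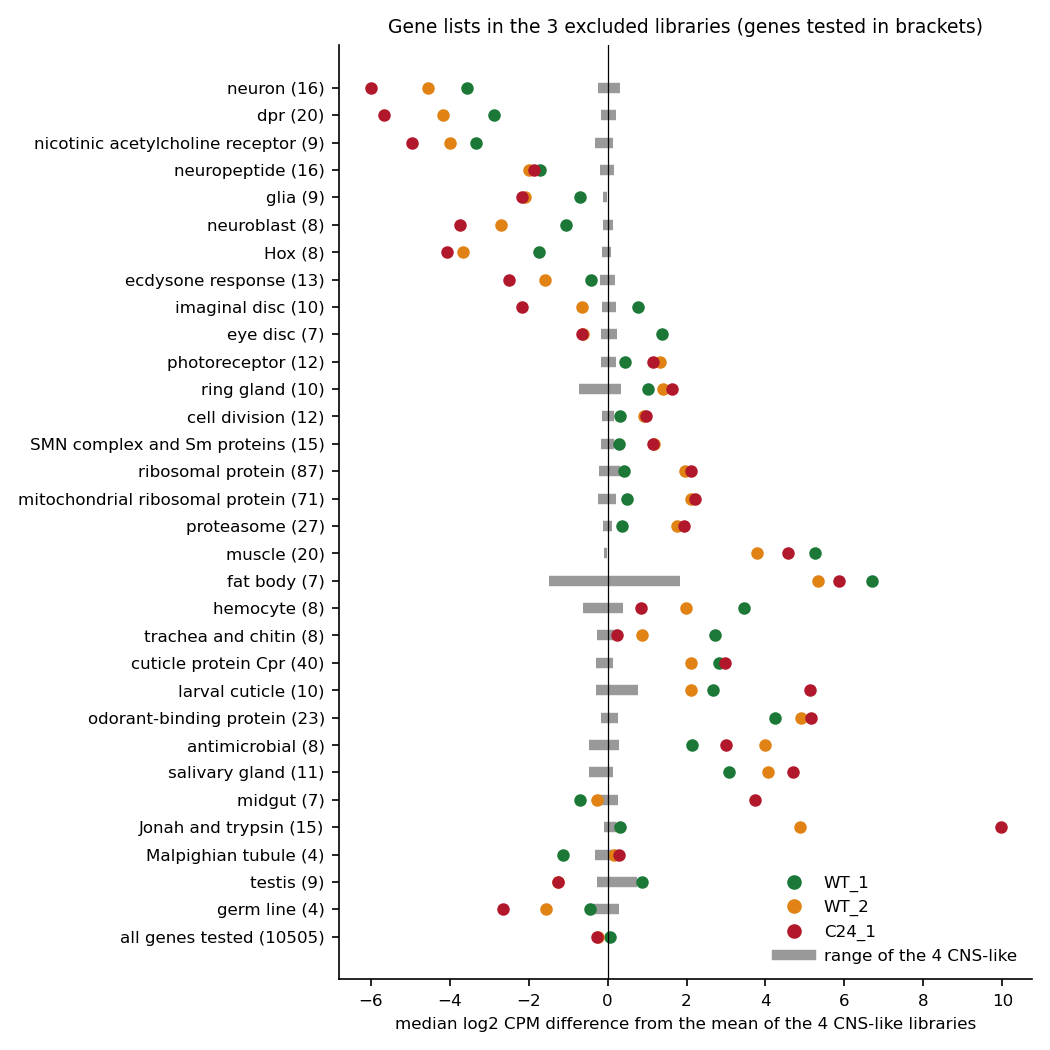
Median log2 CPM difference of each gene list from the mean of the 4 CNS-like libraries, with the number of genes tested in brackets, for WT_1, WT_2 and C24_1 (points), beside the range of the 4 CNS-like libraries (grey bars). Neural lists lie left of 0 and muscle, fat body, cuticle and glue lists right of it in all 3 libraries, while the Jonah and trypsin list runs from 0.33 in WT_1 to 9.95 in C24_1.

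As a share of all counts these tissue genes were small. The 103 genes of 8 lists (muscle, fat body, salivary gland, midgut, Jonah and trypsin, hemocyte, trachea and chitin, larval cuticle) took 1.59% (95% Wilson interval 1.59 to 1.60) in WT_1 and 0.648% (0.643 to 0.653) and 2.07% (2.06 to 2.08) in WT_2 and C24_1, against 0.220% to 0.295% in the CNS-like libraries. Tm1, Actn and Rfabg, which the CNS-like libraries also express, are included. Within these, the proteases took 0.823% in C24_1, 0.0248% in WT_2 and 0.000571% in WT_1, and the fat body list 0.911% (0.907 to 0.916) in WT_1. The 16 neuronal genes, elav among them, took 0.0964% (0.0949 to 0.0980), 0.0257% and 0.00910%, against 0.758% to 0.885%. Pools with fewer cells of a type and cells with less RNA of a gene cannot be told apart in such data.

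**Figure D5:**
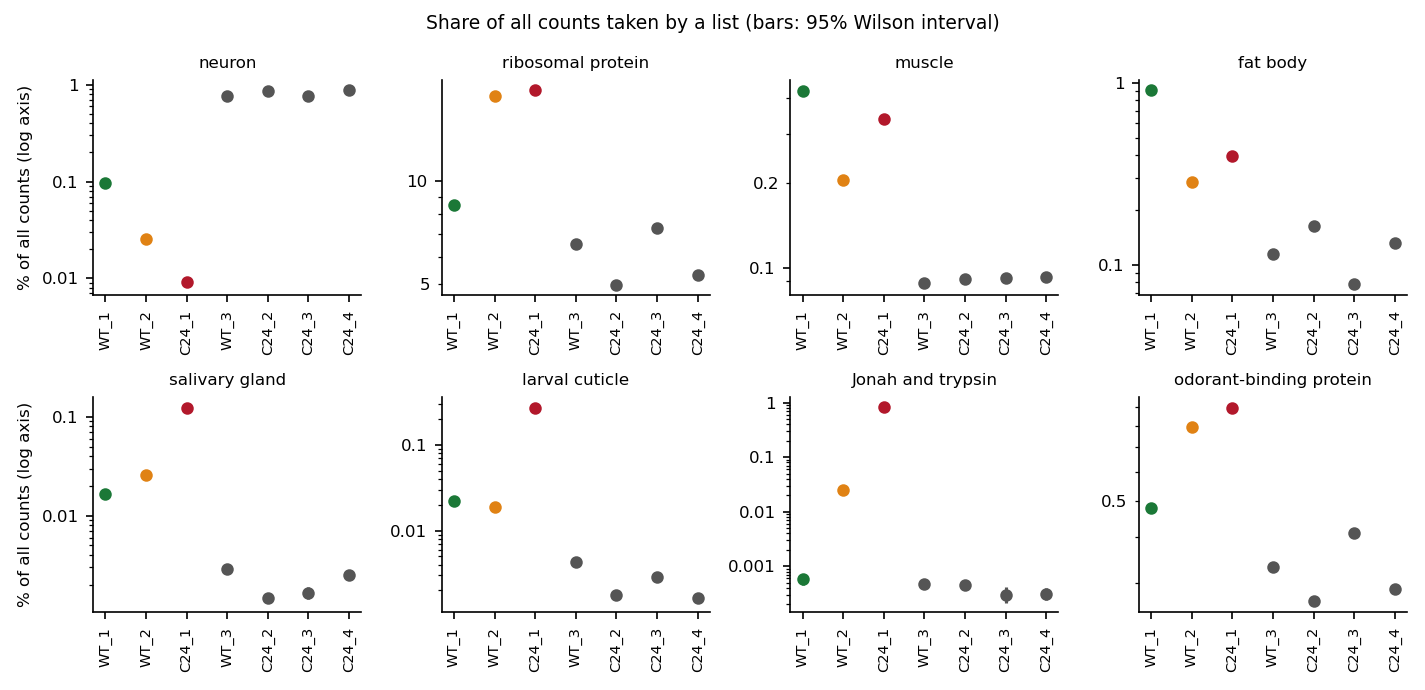
Share of all counts (%, log axis) taken by 8 gene lists in each pilot library, with 95% Wilson intervals that are mostly smaller than the points. The neuron list takes under 0.1% in the 3 excluded libraries and over 0.7% in the 4 CNS-like ones, and the ribosomal protein genes take 17.7% and 18.5% in WT_2 and C24_1.

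Genes that every cell uses differed in share as well. Genes for cytoplasmic ribosomal proteins, 87 of them detected and taken by symbol after their values had been seen, made up 8.50% of counts in WT_1 and 17.7% and 18.5% in WT_2 and C24_1, against 4.96% to 7.30% in the CNS-like libraries. Their median difference was 0.41, 1.97 and 2.11. RpLP0, a protein of the ribosomal stalk, was at 1899, 7059 and 8069 CPM against 1134 to 1527. Genes for mitochondrial ribosomal proteins had medians of 0.48, 2.12 and 2.21. These genes have short 3' UTRs, with list medians of 122 and 64.5 bases against 229.0 over all genes tested, and with the length medians taken out the ribosomal protein list stood at -0.03, 0.53 and 0.49.

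Smn, the target of the hairpin, was among the higher genes. It was at 132 CPM in WT_1 and 482 and 482 in WT_2 and C24_1, against 122 in WT_3, 82.8 in C24_2, 108 in C24_3 and 77.8 in C24_4. All 3 excluded libraries lay above the 4 CNS-like ones, WT_1 by little, as they did for 29.4% of 10505 genes. The Sm proteins, the ring that the SMN complex loads on spliceosomal RNA, had the same order: SmB was at 176, 805 and 890 CPM against 127 to 171, and SmD2 at 241, 731 and 768 against 137 to 201. Other subunits of the complex were low in WT_2 and C24_1. Gem3, a DEAD-box helicase, was at 50.9, 9.32 and 4.38 CPM against 48.5 to 59.9, and rig, the Gemin5 protein of the fly, at 104, 35.2 and 23.3 against 104 to 134. The 3' UTR of Smn has 104 bases, that of Gem3 531 and that of rig 315, so that rig was low with a 3' UTR of under 400 bases. Replication and mitosis genes were divided likewise, Mcm3 of the replicative helicase being at 173, 589 and 708 CPM against 96.7 to 144 and cyclin A, CycA, at 391, 93.5 and 72.8 against 350 to 385. In WT_1 no gene of either list was above or below. The median difference of the 15 SMN complex and Sm genes was 0.29, 1.17 and 1.14 in WT_1, WT_2 and C24_1. With the length medians taken out it was -0.08, 0.12 and -0.06.

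Set directly against each other, WT_2 and C24_1, which carry different labels, lay within 2-fold for 83.1% of 7134 genes. WT_1 and WT_2, both labelled WT, did so for 37.2%, and WT_1 and C24_1 for 29.9%. WT_2, C24_1 and the CNS-like C24_4 were made with 1 set of kits, and WT_1, WT_3, C24_2 and C24_3 with the other, as the study lists them, so that the kits do not divide the excluded from the CNS-like libraries. The study also lists for WT_2 and C24_1 the lowest cDNA input of the series and the smallest shares of aligned reads left after duplicate removal. The part of input and duplicates in their likeness was not tested. Whatever the size of the difference, all 3 excluded libraries lay above all 4 CNS-like ones for 3093 of 10505 genes (29.4%) and below for 3221 (30.7%). With a mean difference of at least 4-fold these were 1297 genes (12.3%) and 1940 (18.5%). Without WT_1 the latter counts were 1964 and 2981.

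Genotype, which the choice of libraries did not use, could be tested over the 7 pilot libraries as 4 C24 against 3 WT. The edgeR quasi-likelihood test called 0 of 9586 genes (0.0%) at an adjusted p under 0.05, 67 being under 0.05 unadjusted, and DESeq2 called 0 with 105 unadjusted. The log2 fold change of Smn in C24 over WT was -0.37 (SE 0.89, adjusted p = 0.9999), and its sign turned to 0.61 without WT_2. With the spread among these libraries, a count of 0 says little about genotype. Among the 4 CNS-like libraries alone, 3 C24 against 1 WT, 2 of 9700 genes were called (0.0206%), mthl8 and Cyp4p2, both lower in C24 (edgeR adjusted p = 0.0100 for each). Among the 3 excluded libraries, 1 C24 against 2 WT, the log2 fold change of Smn was 0.77. In both of these fits 1 arm is a single library, assumed to vary like the others, so that genotype and that library cannot be told apart, and C24_1 was itself chosen by its markers.

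The genes mthl8 and Cyp4p2 were then read in the excluded libraries, which took no part in the fit of the CNS-like ones. mthl8, a G protein-coupled receptor gene, had 448 counts in WT_3 and 0 to 1 in C24_2, C24_3 and C24_4. It had 469 in the library labelled WT_1, 0 in the library labelled WT_2 and 0 in C24_1. In the later rounds it had 108 to 548 counts in WT_4, WT_5 and WT_6, 0 in C24_5 and C24_7, 67 in C24_6 and 1107 to 1973 in the 4 X7/C24 libraries. The libraries with the hairpin were thus not alike in mthl8, and those of X7/C24 also carry a deletion of Smn. What sets its level was not tested. Its level in WT_2, at most 0.383 CPM as a count of 0 allows, does not settle the label. Cyp4p2, a cytochrome P450, had 699 counts in WT_3 and 4 to 12 in the 3 CNS-like C24 libraries, and it had 2, 1 and 0 in WT_1, WT_2 and C24_1. Here both WT libraries among the excluded had the level of C24. CG32437, called in no fit, had 24 to 113 counts in the CNS-like C24 libraries and 2 in C24_1. The part of tissue content in these levels was not tested, and p-values above measure only the spread between pooled libraries.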

How the data were processed

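Per the labels and methods of the study, poly-A selected RNA of pooled larval CNS was sequenced as unstranded paired ends, aligned by the authors with BWA to BDGP5, stripped of duplicate reads and counted per gene with htseq-count in union mode on the FlyBase annotation. The deposited unit is raw counts of 13872 genes, with no normalization. Overlapping and antisense genes cannot be told apart in unstranded counts. Files of counts divided by size factors were not used. Replicates are separate pools of larvae as labelled. Sequencing round and kit set come from the study.

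CPM used TMM factors of edgeR 4.0.16 (R 4.3.3). Genotype was tested with the edgeR quasi-likelihood test after filterByExpr, with Benjamini-Hochberg adjustment, and with limma 3.58.1 and DESeq2 1.42.0 as alternatives. Lengths were taken from the BDGP6 annotation of Ensembl for 13045 genes (94.0%) and used by gene ID. The 26 tissue lists held 286 entries, 2 of which were not in the counts, and 11 families were taken by symbol. The genotype test and the counts of genes set apart were tested on simulated data. The members, lists, tests and alternatives were chosen with earlier results of these data known. Genes named were marker genes, up to 4 of the most abundant genes of a list with those against its direction, and up to 5 genes with the largest excess or depletion in each excluded library among those with at least 50 CPM; others are said to be chosen after their values were seen or come from the lists.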

Additional observations from a re-analysis of the deposited data

Results flagged for a closer look

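Among the 4 C24 libraries of the pilot round, 23 of 43 quantities examined had 1 library farther from the next than Dixon's criterion for 4 values allows, which chance gives in about 1 of 20 groups. In all 23 that library was C24_1, which was among the libraries chosen by their marker levels, so that the count is a description and cannot be read against chance. C24_1 was highest for Smn (482 CPM), Mlc2 (1699 CPM) and Lsp2 (1998 CPM). As medians of log2 differences from the CNS-like mean, C24_1 was lowest for the lists of neurons (-6.00), dpr genes (-5.67), nicotinic receptors (-4.95), Hox genes (-4.07), neuroblasts (-3.74), ecdysone response (-2.51), imaginal discs (-2.17) and glia (-2.17). It was highest for Jonah and trypsin (9.95), peritrophins and obstructors (5.69), odorant-binding proteins (5.16), larval cuticle (5.14), salivary gland (4.70), muscle (4.57), Eig71E (4.21), midgut (3.73), antimicrobial genes (3.00), Cpr cuticle proteins (2.98), glutathione S-transferases (2.85) and proteasome (1.94). The neuropeptide list was not among them. With 3 WT libraries in the round, WT_1 and WT_2 were not examined in this way.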

How the results depend on the processing

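The genotype count stayed at 0 under DESeq2, limma-voom, other scalings and filters, terms for the excluded libraries or the kit set, and each library left out (0 to 0), which is no sign of stability, since this spread left little room for calls. It became 2 in the CNS-like and 123 in the excluded libraries alone. Smn, at -0.37, turned to 0.0834 with a term for the excluded libraries and to 0.77 within them, and ran from -1.54 to 0.61 with 1 library left out. With the replicate block the count was 0 and Smn -0.25. Replicate numbers did not pair the libraries: deviations of same-numbered libraries correlated at 0.08, -0.86 and 0.80. Genes set apart between the 3 excluded and the 4 CNS-like pilot libraries, upward, numbered 2606 at 2-fold and 718 at 8-fold in place of 1297, and downward 772 at 8-fold in place of 1940. Leaving 1 library out gave 1103 to 1964 upward and 1298 to 2981 downward, with WT_1 at the top of both. With the length medians removed, which was chosen after the data had been seen, the genes set apart numbered 1048 and 979. Of 111 list levels, 14 changed sign under that setting, 5 under total counts, 2 with second-round libraries as reference and 1 with list genes of any level. They included, under the length setting, imaginal discs in WT_2 (1.04) and C24_1 (0.063), eye discs in WT_2 (0.71) and C24_1 (1.41), and ecdysone response in WT_1, WT_2 and C24_1 (0.34, 0.31 and 0.64), and, with second-round libraries as reference, Jonah and trypsin in WT_1 (-0.26). The SMN complex and Sm proteins also changed sign under the length setting, in WT_1 (-0.078) and C24_1 (-0.058). The cause was not tested. The lowest depth, 7883183 counts in C24_1, limits levels under 0.469 CPM.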

Other observations

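Of 18 detected glutathione S-transferase genes of the D and E classes, 5 were above all 4 CNS-like libraries by 4-fold in WT_1 and 11 and 14 in WT_2 and C24_1, where 1 was below in each, with medians of 1.92, 2.81 and 2.85 on the log2 scale. They were taken by symbol after their values had been seen. Of 70 Cpr cuticle protein genes, 40 had at least 10 counts in a pilot library, and 23, 17 and 21 of these were above. A gene could pass that filter through the excluded libraries alone. Of all genes, 8.56%, 13.3% and 16.7% were above and 4.77%, 19.1% and 26.7% below in WT_1, WT_2 and C24_1.

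In the later libraries, Jon99Ciii reached 41.5 CPM and Jon65Aiv 13.0 CPM in 1 of the 10, against 2.97 and 2777 in C24_1, so that the protease genes present differed between libraries. Hml reached 106 CPM in 1 later library, above the 86.2 of WT_1, and Lsp2 54.3 CPM, against 1151 to 1998 in the excluded ones.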
